A study of Mus musculus with 16 samples.

Results

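The 7 genes described here encode regulators of the gamma-delta T-cell lineage and of innate-like T cells, and their mRNA was followed in DN3 thymocytes, the CD4-CD8-CD25+CD44- T-cell progenitors of the mouse thymus. They are Sox13, Sox4, Etv5, Maf, Zbtb16, Il23r and Tbx21, taken by gene symbol from 2 tables of read counts that both list the same 22114 genes. All 7 symbols were found in both tables. The first table gave the 9 libraries used here of total DN3 cells from 6-week-old mice on a C57BL/6J background. It holds 1 more column, named like a further Lmo2Tg;p21KO library, which matched no labelled sample and was left out. The sample labelled p21KO replicate 3 matched no column and was not analysed here. Wild-type mice gave 3 libraries. Mice with a germline loss of p21 (p21-/-, here p21KO), the cell-cycle inhibitor encoded by Cdkn1a, gave 2. Mice that carry a CD2-Lmo2 transgene (Lmo2Tg), which drives Lmo2 in the T lineage and leads to T-cell leukaemia later in life, gave 2. Mice with both alleles (Lmo2Tg;p21KO) gave 2. The second table holds 3 GFPhi and 3 GFPlo libraries of DN3 cells from Lmo2Tg mice that also carry TetOP-H2B-GFP, a histone fused to a fluorescent protein. These mice had 6 weeks of doxycycline, which switches the label on, and 2 weeks without it, during which cells that divide dilute the label. Both GFP groups therefore carry the Lmo2 transgene and were sorted by the label that remained. Libraries of total DN3 cells came from pools of 3 to 5 mice, so a value is an average over animals. The GFP libraries came from 3 independent cohorts, and the paper describes these RNA-seq samples as pooled too. Its legend for the GFP profile gives 2-month-old mice, while its methods give 6-week-old mice for pooled RNA. All lines were on the C57BL/6J background. The p-values measure the spread between these libraries. Total counts ranged from 13864936 to 16837667 per genotype library and from 26861394 to 31106213 per GFP library.

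Thymocytes choose between the alpha-beta and the gamma-delta lineage at the DN stages, and strong T-cell receptor signals favour the gamma-delta fate. SOX13 and SOX4 are HMG-box factors known for their part in gamma-delta T cells that make interleukin-17, together with the ETS factor ETV5 and the bZIP factor c-MAF. PLZF, encoded by Zbtb16, drives the innate-like programme of NKT cells and of some gamma-delta T cells, IL-23R is the receptor subunit through which interleukin-23 sustains interleukin-17 production, and T-bet, encoded by Tbx21, directs the type 1 programme with interferon-gamma. LMO2 does not bind DNA itself and bridges basic helix-loop-helix factors at E-boxes (CANNTG) and GATA factors at GATA motifs.

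The genes lie on 7 different chromosomes of GRCm38, all on the minus strand. Sox13 (ENSMUSG00000070643) spans chr1:133382303-133424377, Sox4 (ENSMUSG00000076431) chr13:28948919-28953713 and Etv5 (ENSMUSG00000013089) chr16:22381309-22439719. Maf (ENSMUSG00000055435) spans chr8:115682942-115707794, Zbtb16 (ENSMUSG00000066687) chr9:48654297-48836222, Il23r (ENSMUSG00000049093) chr6:67422932-67491855 and Tbx21 (ENSMUSG00000001444) chr11:97098071-97115331. Sox4 shares 2616 bp of exon with Gm26735, a lincRNA on the opposite strand, and Maf shares 440 bp with the antisense gene Gm15655. The names of the deposited tables point to counting without strand for the genotypes and by strand for the GFP libraries, and the methods do not state it. Without strand, reads in these shared stretches cannot be told apart, and whether they were counted or left out is not stated. In RefSeq (GRCm38.p6) 5 of the 7 genes matched a promoter, and Maf and Zbtb16 did not. The stretches before the gene start of Sox13, Sox4 and Etv5 are shown because these 3 genes changed with the Lmo2 transgene both with and without p21, with E-boxes (CANNTG) and GATA motifs on either strand in capitals.
Sox13, chr1:133424378-133424462, minus strand: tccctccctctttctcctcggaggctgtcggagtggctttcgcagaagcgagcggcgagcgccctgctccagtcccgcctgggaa
Sox4, chr13:28953714-28953949, minus strand: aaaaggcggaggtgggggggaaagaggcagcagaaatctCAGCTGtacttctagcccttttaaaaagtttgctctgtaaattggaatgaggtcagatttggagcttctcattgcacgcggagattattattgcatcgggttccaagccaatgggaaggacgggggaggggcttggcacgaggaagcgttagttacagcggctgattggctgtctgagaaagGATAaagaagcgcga
Etv5, chr16:22439720-22439820, minus strand: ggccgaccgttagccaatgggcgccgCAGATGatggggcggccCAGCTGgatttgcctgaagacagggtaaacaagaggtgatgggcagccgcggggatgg
The 85 bp shown for Sox13 held neither motif, the 236 bp for Sox4 held 1 E-box and 1 GATA motif, and the 101 bp for Etv5 held 2 E-boxes. Over 250 bp windows, 66.2% of 32851 promoters held at least 1 CANNTG and 53.6% at least 1 GATA, so a match is common and says nothing of binding.

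The labels were checked on the genes that the alleles alter. Lmo2 stood at 0.0636 to 0.306 CPM (TMM-normalized counts scaled to library size) in the 3 wild-type libraries, at 0.176 and 0.190 CPM in p21KO, at 41.4 and 100.4 CPM in Lmo2Tg and at 85.4 and 107.0 CPM in Lmo2Tg;p21KO. The columns taken as Lmo2Tg carry names that the labels also use to describe GFPlo samples. They were read as Lmo2Tg because they stand in the table of genotypes, and every Lmo2Tg value rests on that reading. They are not copies of the GFPlo columns, since GFPlo replicates 2 and 3 hold 28436894 and 31106213 counts and 11.1 and 8.08 CPM of Cdkn1a in the other table, against 14003156 and 15176210 counts in the Lmo2Tg columns. Cdkn1a stood at 36.5, 37.5 and 49.0 CPM in wild-type, 14.3 and 17.7 CPM in p21KO, 32.8 and 26.3 CPM in Lmo2Tg and 4.35 and 3.50 CPM in Lmo2Tg;p21KO. The 12 DN3 markers chosen for this check were found in every library, summing to between 5025 and 8713 CPM, with Il2ra (CD25) or Rag1 the most abundant. In the GFP table, GFPhi replicate 3 stood apart from the other libraries. It lay at -52.25 on the second principal component, which held 27% of the variance, against 32.41 and 34.93 for GFPhi replicates 1 and 2. It had 285.0 CPM of Lmo2, against 29.5 to 53.8 CPM in the other GFP libraries, and 6.56 CPM of Cdkn1a, against 35.8 and 29.9 CPM in GFPhi replicates 1 and 2 and 12.02, 11.1 and 8.08 CPM in GFPlo. Cdkn1a was not called in GFPhi against GFPlo over all 6 libraries (log2 fold change 1.21, adjusted p = 0.21 in edgeR) and was called higher without GFPhi replicate 3 (1.67, adjusted p = 0.00062). For the regulators and for the lists read with them, the GFP results are therefore given with and without it.

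The level of the 7 genes spanned more than 3 orders of magnitude. Per kb of exon, Sox4 was the most abundant of them in wild-type DN3 cells at 31.6 ± 2.27 CPM per kb (SD, n = 3), followed by Sox13 at 19.9 ± 1.39, Etv5 at 6.18, Maf at 0.875 and Tbx21 at 0.224 CPM per kb. Zbtb16 followed at 0.110 and Il23r at 0.0248 CPM per kb. In wild-type libraries the ranges of Tbx21 and Zbtb16 overlapped, while all other neighbours in this order were apart. The order of the means was the same in p21KO, GFPhi and GFPlo libraries, with overlapping ranges for Maf and Tbx21 in GFPlo and for Zbtb16 and Il23r in both GFP groups. In Lmo2Tg libraries Sox13 and Sox4 lay side by side at 43.1 and 38.6 CPM per kb, with overlapping ranges, and in Lmo2Tg;p21KO libraries Sox13 was above Sox4 in both, at 55.5 against 43.8 CPM per kb. Sox4 shares 2616 of its 4795 bp of exon with an opposite-strand gene and Sox13 shares none. The part of strand counting in their order was not tested. In GFPhi and GFPlo cells, which also carry the transgene, Sox4 stood at 114.9 and 100.9 and Sox13 at 54.6 and 58.7 CPM per kb. Zbtb16 and Maf overlapped in Lmo2Tg and in Lmo2Tg;p21KO libraries, and Tbx21 stood below both in Lmo2Tg and overlapped with Maf in Lmo2Tg;p21KO. Il23r was at the edge of detection. It had 1 to 3 counts in each genotype library and 0 or 1 in each GFP library, where 0 counts allow a level of up to 0.112 CPM, counting error only. In Lmo2Tg libraries only Zbtb16 and Sox13 of the 7 genes ranked higher than in wild-type.

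**Figure D1:**
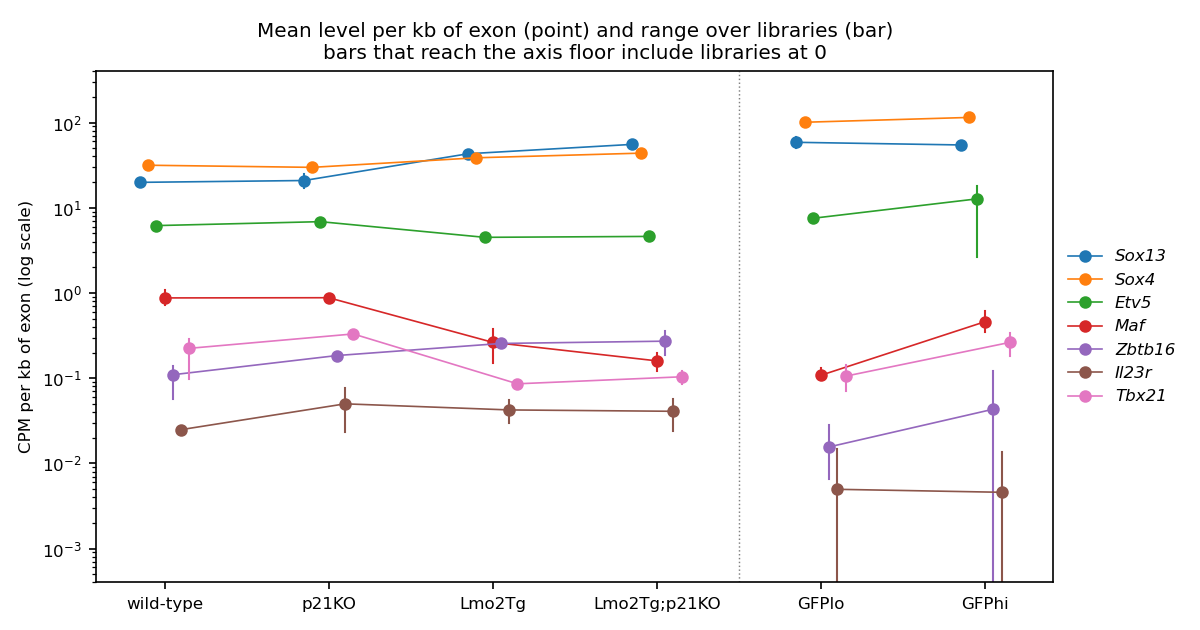
Mean level of each of the 7 genes per kb of exon (points, log scale) and range over libraries (bars) in the 4 genotypes and, right of the dotted line, in GFPlo and GFPhi cells, which come from a table normalized apart. Sox13 rose from 19.9 CPM per kb in wild-type to 43.1 in Lmo2Tg, level with Sox4, whose exons overlap an opposite-strand gene. Il23r stayed at or under 0.0499 CPM per kb.

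The first question was what the Lmo2 transgene does to these regulators in total DN3 cells. Lmo2Tg was compared with wild-type, and Lmo2Tg;p21KO with p21KO, which share no library but were fitted together with 1 estimate of the spread. With edgeR's quasi-likelihood test and Benjamini-Hochberg adjustment over all 11840 genes tested, genes with an adjusted p under 0.05 were called. Of the 6 regulators tested, 3 were higher and 2 lower in Lmo2Tg cells, where 19.7% of all genes tested were called higher and 16.9% lower. In Lmo2Tg;p21KO against p21KO, 2 were higher and 2 lower, where 16.3% of all genes were called higher and 14.4% lower. Il23r had too few counts to be tested. The SOX genes were higher and Etv5 and Maf lower in both comparisons. In bulk RNA, more cells of a type and more mRNA per cell cannot be told apart.

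Sox13 showed the clearest rise. Its levels were 84.6, 80.4 and 92.2 CPM in wild-type libraries, 73.0 and 107.1 CPM in p21KO, 204.9 and 166.6 CPM in Lmo2Tg, and 256.1 and 222.4 CPM in Lmo2Tg;p21KO. No library with the transgene overlapped with one without it. Sox13 was 2.17-fold higher in Lmo2Tg than in wild-type (log2 fold change 1.12, 95% interval 0.79 to 1.44, adjusted p = 0.00022 in edgeR's quasi-likelihood test) and 2.66-fold higher in Lmo2Tg;p21KO than in p21KO (1.41, 1.05 to 1.78, adjusted p = 0.00011). Sox4 moved the same way by less. It stood at 147.8, 163.7 and 142.8 CPM in wild-type, 145.1 and 140.9 CPM in p21KO, 174.2 and 196.1 CPM in Lmo2Tg, and 222.3 and 197.4 CPM in Lmo2Tg;p21KO. Again the libraries with and without the transgene did not overlap. The rise was 1.22-fold in Lmo2Tg (log2 fold change 0.29, 0.09 to 0.49, adjusted p = 0.026 in edgeR) and 1.47-fold in Lmo2Tg;p21KO (0.55, 0.34 to 0.77, adjusted p = 0.0018). The call in Lmo2Tg against wild-type was lost without wild-type replicate 1 (adjusted p = 0.074), without wild-type replicate 3 (0.059) and without Lmo2Tg replicate b (0.20).

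Etv5 and Maf were lower with the transgene. Etv5 read 25.6, 25.3 and 25.2 CPM in wild-type, 25.6 and 30.8 CPM in p21KO, 19.8 and 17.2 CPM in Lmo2Tg, and 18.3 and 19.6 CPM in Lmo2Tg;p21KO. It was 1.37-fold lower in Lmo2Tg than in wild-type (log2 fold change -0.46, -0.71 to -0.20, adjusted p = 0.011 in edgeR) and 1.49-fold lower in Lmo2Tg;p21KO than in p21KO (-0.57, -0.85 to -0.30, adjusted p = 0.0056). Without Lmo2Tg replicate b the first call was lost (adjusted p = 0.084), and without p21KO replicate 2 the second (0.057). Maf fell furthest. It read 5.88, 8.91 and 6.84 CPM in wild-type and 6.39 and 8.10 CPM in p21KO libraries. In Lmo2Tg libraries it read 3.11 and 1.23 CPM, and in Lmo2Tg;p21KO libraries 0.999 and 1.63 CPM. These are 14 to 42 counts against 96 to 140 counts in libraries without the transgene. Maf was 3.35-fold lower in Lmo2Tg (log2 fold change -1.74, -2.52 to -0.97, adjusted p = 0.0031 in edgeR) and 5.40-fold lower in Lmo2Tg;p21KO (-2.43, -3.30 to -1.57, adjusted p = 0.00097). Leaving out Lmo2Tg replicate a or b moved the log2 fold change of Maf in Lmo2Tg to -2.54 or -1.21, and the call held.

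The other 3 genes were scarce. Zbtb16 had 12, 11 and 5 counts in wild-type (0.735, 0.700 and 0.302 CPM), 17 and 15 in p21KO (0.997 and 0.949 CPM), 18 and 20 in Lmo2Tg (1.33 and 1.37 CPM) and 14 and 31 in Lmo2Tg;p21KO (0.999 and 1.87 CPM). It was called higher in Lmo2Tg than in wild-type, 2.32-fold (log2 fold change 1.21, 0.27 to 2.16, adjusted p = 0.046 in edgeR). This call was lost without any 1 of the wild-type, p21KO or Lmo2Tg libraries, with adjusted p between 0.053 and 0.14, and with DESeq2 (0.12). Against p21KO, Lmo2Tg;p21KO gave 1.49-fold (adjusted p = 0.33). Tbx21 had 4, 11 and 12 counts in wild-type and 14 and 13 in p21KO, against 3 in each Lmo2Tg library and 3 and 5 in Lmo2Tg;p21KO. Its log2 fold change was -1.35 (-2.69 to -0.01, adjusted p = 0.10 in edgeR) in Lmo2Tg and -1.62 (-2.89 to -0.36, adjusted p = 0.052) in Lmo2Tg;p21KO, neither of them called. Without wild-type replicate 1, the library with 4 counts, Tbx21 was called lower in both (adjusted p = 0.032 and 0.030), and in a fit of only the 2 groups in Lmo2Tg;p21KO (0.045).

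**Figure D2:**
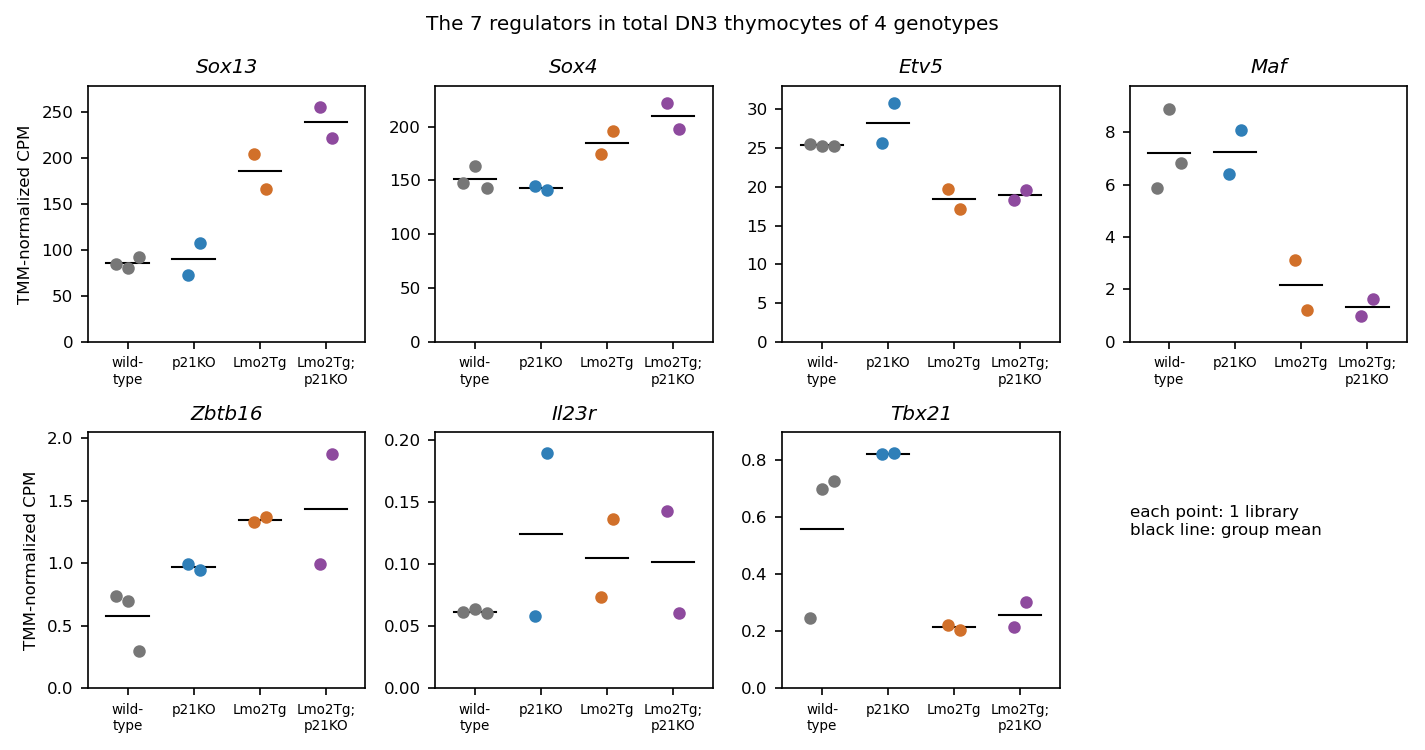
TMM-normalized CPM of each gene in total DN3 cells of 4 genotypes, 1 point a library and a line at the group mean, with the axis of each panel starting at 0. The Lmo2Tg and Lmo2Tg;p21KO libraries lie above all others for Sox13 and Sox4 and below all others for Etv5 and Maf, while Il23r values come from 1 to 3 counts.

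The next question was whether loss of p21 moves these genes. In p21KO against wild-type cells, where 0.11% of all genes tested were called (13 genes), none of the 6 regulators tested was called. None of them had an unadjusted p under 0.05, against 391 of all 11840 genes tested. Sox13 gave a log2 fold change of 0.07 (-0.26 to 0.40), Sox4 -0.08 (-0.28 to 0.12), Etv5 0.15 (-0.09 to 0.40) and Maf 0.01 (-0.64 to 0.65). In Lmo2Tg;p21KO against Lmo2Tg, where 6.94% of all genes were called, none of the 6 was called either. Sox13 was 1.29-fold higher there (log2 fold change 0.37, 0.01 to 0.72, unadjusted p = 0.045 and adjusted p = 0.19 in edgeR's quasi-likelihood test). It was the only 1 of the 6 with an unadjusted p under 0.05, against 3023 of all 11840 genes tested. DESeq2 and limma-voom called none of the 6 in these comparisons. The interaction term, which asks whether the effect of p21 loss differed between mice with and without the transgene, was called for 1.38% of all genes and for none of the 6. None of the 6 had an unadjusted p under 0.05 for it, against 2148 of all 11840 genes tested. The intervals of these contrasts were narrow for Sox4 and Etv5 and wide for Maf, Zbtb16 and Tbx21, where the interaction reached from -1.88 to 0.50, from -1.97 to 0.69 and from -2.29 to 1.74 on the log2 scale.

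The last comparison asked how label-retaining DN3 cells, which divide little, differ from GFPlo cells of mice with the same alleles. Of the 5 regulators tested in the 6 GFP libraries, 1 was called higher and none lower, where 5.37% of the 11581 genes tested were called higher and 9.49% lower. That gene was Maf. It stood at 0.777, 0.803 and 1.10 CPM in GFPlo and 2.90, 3.38 and 5.10 CPM in GFPhi libraries, which are 21 to 34 counts against 79 to 137. The groups did not overlap, and Maf was 4.23-fold higher in GFPhi cells (log2 fold change 2.08, 1.35 to 2.81, adjusted p = 0.011 in edgeR). Without GFPhi replicate 3 it was 3.51-fold higher (adjusted p = 0.0017), and without GFPlo replicate 2 the log2 fold change was 2.02 and the call was lost (adjusted p = 0.076). Maf, which fell furthest with the transgene among the 6 regulators tested, was higher in GFPhi than in GFPlo cells, both of which carry it.

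Etv5 depended on 1 library. Its level was 33.1, 31.0 and 28.5 CPM in GFPlo and 74.2, 71.5 and 10.8 CPM in GFPhi replicates 1, 2 and 3, so that GFPhi replicate 3 lay below every GFPlo library and the other GFPhi libraries above them. Over all 6 libraries its log2 fold change was 0.76 (-0.81 to 2.32, adjusted p = 0.45 in edgeR). Without GFPhi replicate 3 Etv5 was 2.37-fold higher in GFPhi cells (adjusted p = 0.00011). Tbx21 had 7, 5 and 11 counts in GFPlo and 18, 25 and 12 in GFPhi libraries. Its groups did not overlap at 0.259, 0.175 and 0.354 CPM against 0.661, 0.853 and 0.447 CPM, and it was not called over 6 libraries (log2 fold change 1.30, 0.29 to 2.31, adjusted p = 0.088) but was without GFPhi replicate 3 (1.51, adjusted p = 0.023). Without that library 3 of 5 regulators were called higher and none lower, where 19.5% of all genes were called higher and 21.7% lower. Sox13 and Sox4 did not pass the test with or without it. Sox13 read 295.9, 247.5 and 215.5 CPM in GFPlo and 252.0, 228.2 and 226.4 CPM in GFPhi libraries (log2 fold change -0.10, -0.40 to 0.20, adjusted p = 0.60). Sox4 read 493.9, 455.9 and 501.0 CPM in GFPlo and 549.5, 506.5 and 596.4 CPM in GFPhi libraries (0.19, -0.01 to 0.38, adjusted p = 0.16). Zbtb16 had 4, 1 and 2 counts in GFPlo and 1, 19 and 0 in GFPhi libraries, and the 19 counts of GFPhi replicate 2 stood alone.

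**Figure D3:**
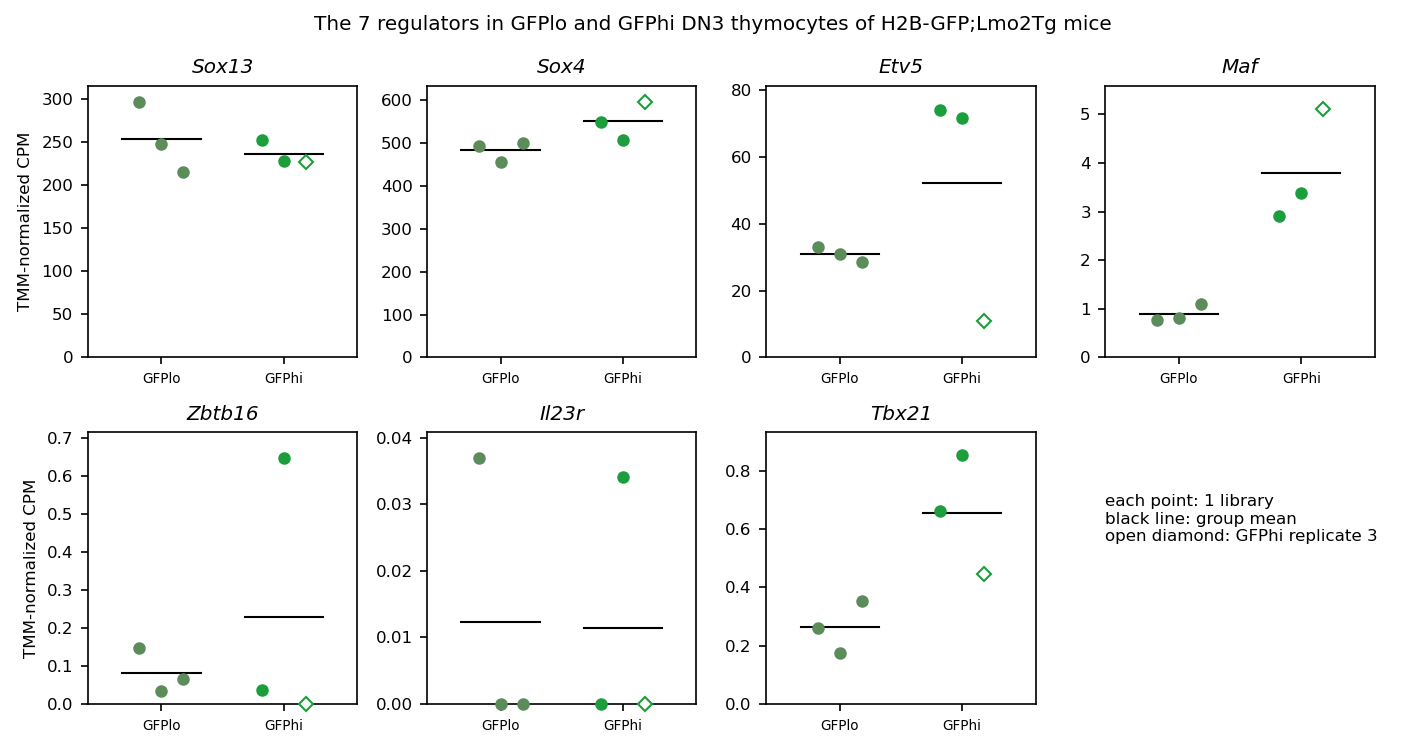
TMM-normalized CPM of each gene in GFPlo and GFPhi DN3 cells, 1 point a library and a line at the group mean, with GFPhi replicate 3 as an open diamond. Maf was above every GFPlo library in all 3 GFPhi libraries, while Etv5 was at 74.2 and 71.5 CPM in GFPhi replicates 1 and 2 and at 10.8 CPM in replicate 3.

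**Figure D4:**
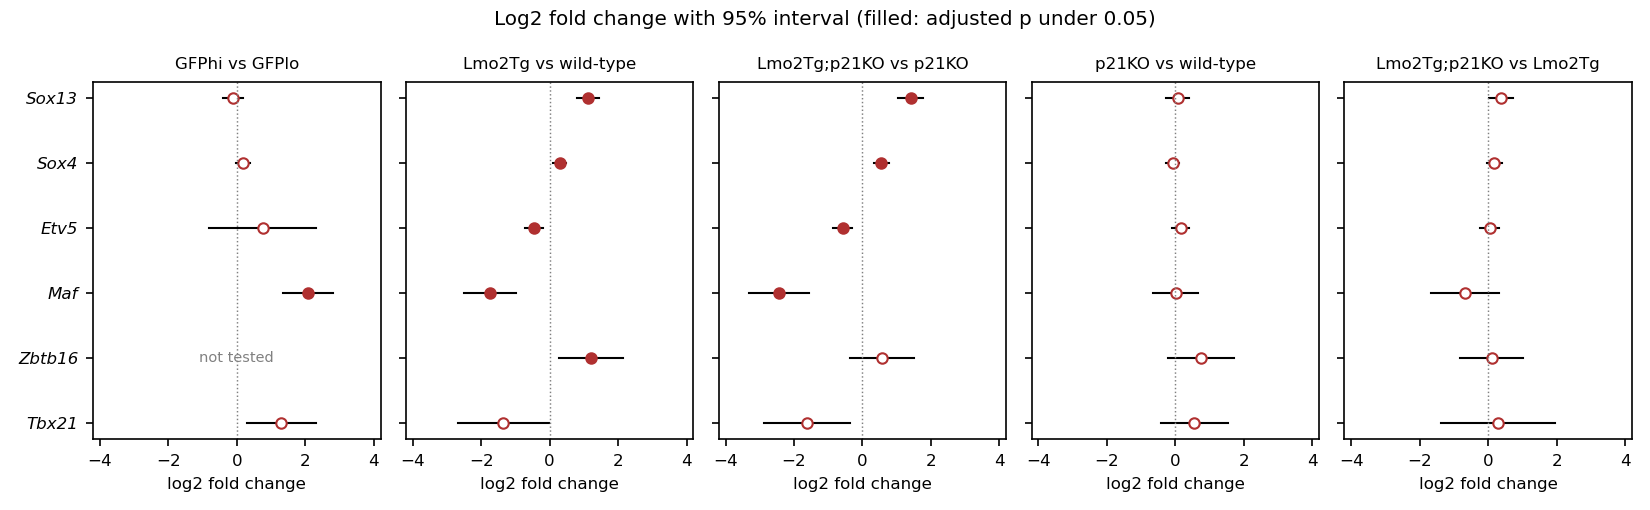
Log2 fold change of 6 genes in 5 comparisons with its 95% interval, filled where the adjusted p was under 0.05 in edgeR's quasi-likelihood test. The comparisons of mice with and without the transgene gave filled points above 0 for Sox13 and Sox4 and below 0 for Etv5 and Maf, and both comparisons of p21 loss gave none. Il23r is not shown because it was not tested.

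Genes known to work with the 7 regulators were then read as lists. With the transgene, 10 of the 15 tested genes of the interleukin-17 programme were called in Lmo2Tg against wild-type, 2 higher and 8 lower, where 19.7% of all genes were called higher and 16.9% lower, with a median log2 fold change of -0.75 against -0.01 over all genes. Lower were the scavenger receptor gene 5830411N06Rik (194.5 to 11.8 CPM, log2 fold change -4.05 with standard error 0.32), the chemokine receptor Ccr2 (-1.85, standard error 0.44) and the kinase Blk (-1.45, standard error 0.19). Without Lmo2Tg replicate b the call of Ccr2 was lost (adjusted p = 0.064 in edgeR). Higher was Rora, which encodes a nuclear receptor, from 4.02 to 32.1 CPM (log2 fold change 3.00, standard error 0.29). Rora was also higher in Lmo2Tg;p21KO than in p21KO (2.83, standard error 0.32), where 11 of 15 were called, 4 higher and 7 lower, against 16.3% and 14.4% of all genes. Cd163l1 was among the higher ones there, at 334.9 against 46.6 CPM, with a log2 fold change of 2.84 that fell to 1.80 without Lmo2Tg;p21KO replicate 1 and stayed called. The cytokine genes Il17a and Il22 were at 0 in all 3 wild-type and both Lmo2Tg libraries. Il17f, too scarce to be tested, stood at 0.410 and 0.592 CPM in Lmo2Tg against 0 to 0.191 CPM in wild-type, and the other way round at a mean of 0.217 CPM in Lmo2Tg;p21KO against 0.276 CPM in p21KO, where the groups overlapped. These lists were chosen with earlier results known, so their counts describe them and no more.

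Type 1 and cytotoxic genes were read next. Of 12 tested, 6 were higher and 1 lower in Lmo2Tg, where 19.7% of all genes were higher and 16.9% lower, with a median log2 fold change of 0.89, while Tbx21 itself was not among the genes called. The lower gene was Gzma, at 111.1 CPM in Lmo2Tg against 197.7 CPM in wild-type (log2 fold change -0.83, standard error 0.13). Gzmb, which encodes granzyme B, stood at 7.06 CPM in Lmo2Tg and 0.0628 CPM in wild-type. Fasl, the death ligand, stood at 4.28 and 0.372 CPM, and Il18rap, a subunit of the interleukin-18 receptor, at 4.33 and 0.680 CPM. Il12rb2, a subunit of the interleukin-12 receptor, rose from 70.4 to 160.5 CPM (log2 fold change 1.19, standard error 0.09). In Lmo2Tg;p21KO against p21KO 8 of 12 were higher and 1 lower, where 16.3% of all genes were higher and 14.4% lower. Of the IL-23 receptor axis, 4 genes were tested and 3 rose in Lmo2Tg, while Il23r itself was near 0. They were the partner receptor chain Il12rb1 (18.6 to 38.6 CPM), the kinase Jak2 (84.5 to 143.4 CPM) and Stat3, the factor that acts below the receptor (199.2 to 341.8 CPM). All 4 were called higher in Lmo2Tg;p21KO against p21KO, Tyk2 with its call lost in 3 of 16 alternatives (adjusted p up to 0.15 in edgeR), and Stat3 was also called higher in Lmo2Tg;p21KO than in Lmo2Tg (473.6 against 341.8 CPM, adjusted p = 0.021 in edgeR), a call lost in 4 of 15 alternatives with adjusted p up to 0.20.

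All 7 tested genes linked to PLZF were called in Lmo2Tg, 6 of them higher and 1 lower, against 19.7% and 16.9% of all genes. Slamf1, a receptor of the SLAM family through which NKT cells are selected, rose from 6.32 to 44.0 CPM (log2 fold change 2.79, standard error 0.19) and Cd1d1, which encodes the molecule that presents lipids to NKT cells, from 49.0 to 80.9 CPM. Il7r, the interleukin-7 receptor, was lower at 99.4 against 163.2 CPM. Of the TCR signal list, which tracks the strength of receptor signals that bias the lineage choice, 5 of 10 were higher and 2 lower in Lmo2Tg. Nr4a1 rose from 27.5 to 365.7 CPM, Cd69 from 18.4 to 129.4, Egr1 from 39.2 to 173.0 and Cd5 from 24.3 to 64.1 CPM. The 2 lower genes were Id3, from 31.7 to 18.7 CPM, and Nfatc1, from 130.3 to 104.6 CPM. In Lmo2Tg;p21KO against Lmo2Tg 5 of the 10 were lower and none higher, where 6.94% of all genes were called, with Nr4a1 at 29.6, Cd69 at 18.2 and Egr1 at 25.1 CPM. Over 15 alternatives Egr2 lost this call in 5, Cd69 in 4 and Egr1 in 1. Of the same 10, 1 was higher in Lmo2Tg;p21KO than in p21KO, Cd5 (70.0 against 22.6 CPM), and 2, Id2 and Id3, were lower, with a median log2 fold change of -0.46, where 16.3% of all genes were called higher and 14.4% lower. Id2 lost its call in this comparison in 7 of 16 alternatives, with log2 fold changes from -1.328 to -0.368. Nr4a1 (log2 fold change -0.50), Egr1 (-0.39) and Cd69 (-0.13) were not called there. Of the genes linked to PLZF 5 of 7 were higher and none lower in that comparison.

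Among relatives of the 7 genes, 7 of 12 tested were higher and 1 lower in Lmo2Tg, and the counts for Lmo2Tg that follow stand against the same 19.7% of all genes called higher and 16.9% lower. The small MAF gene Maff rose from 6.57 to 60.6 CPM (log2 fold change 3.21, standard error 0.48) and the ETS gene Etv3 from 78.5 to 158.0 CPM (1.01, standard error 0.11), opposite to Maf and Etv5. Sox12, of the same SOX group as Sox4, fell from 14.5 to 4.71 CPM (-1.62, standard error 0.18), opposite to Sox4. In Lmo2Tg;p21KO against Lmo2Tg the small MAF genes Maff and Mafk were called lower, at 4.02 against 60.6 and 84.8 against 172.4 CPM, the first call lost without Lmo2Tg;p21KO replicate 1 (adjusted p = 0.064 in edgeR). Factors that act beside the 7 in early T cells were read next. Of 12 tested, 2 were higher and 1 lower in Lmo2Tg, where 36.6% of all genes were called. Bcl11b, which commits cells to the T lineage, was lower, at 555.1 against 778.5 CPM. Higher were Tox, a call lost in 8 of 15 alternatives, and the Notch target Hes1, at 107.2 and 290.7 CPM against 74.6 to 100.8 CPM. Without Lmo2Tg replicate b the log2 fold change of Hes1 fell from 1.21 to 0.31 and the call was lost (adjusted p = 0.21 in edgeR). Of the DN3 markers 2 of 12 were higher and 9 lower in Lmo2Tg, among them Ptcra, which encodes the pre-TCR alpha chain (40.9 against 152.5 CPM, log2 fold change -1.90, or -2.55 without Lmo2Tg replicate b), and Rag2 (14.4 against 72.3 CPM). Of 7 genes of later thymocytes 4 were higher and 2 lower, and of 4 B-lineage genes tested 1, Cd79b, was lower. In p21KO against wild-type, 0 genes of any of these lists were called.

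The same lists were read in GFPhi against GFPlo cells, where 5.37% of all genes tested were called higher and 9.49% lower. Of the interleukin-17 programme 2 of 15 were higher and 1 lower. Irf4, which encodes a transcription factor of the IRF family, stood at 3.65 CPM in GFPhi and 1.06 CPM in GFPlo (log2 fold change 1.78, adjusted p = 0.043 in edgeR). Of the type 1 and cytotoxic list 2 of 12 were higher, Nkg7 (179.1 against 100.5 CPM) and Fasl (8.29 against 0.214 CPM, with GFPhi libraries between 1.78 and 20.4 CPM). Of the TCR signal list 3 of 9 were higher, Egr1, Egr2 and Cd69. Of the genes linked to PLZF 1 of 7, Slamf1, was lower, and of the DN3 markers 1 of 12, Il2ra, was higher. Over all 6 libraries none of 12 relatives, of 12 partner factors or of 4 genes of the IL-23 axis was called. Without GFPhi replicate 3, 7 of 9 TCR signal genes were higher, 7 higher and 4 lower of 15 interleukin-17 genes and 3 of 4 genes of the IL-23 axis higher, where 19.5% of all genes were called higher and 21.7% lower. In that fit 4 of 12 type 1 genes, 3 of 12 partner factors and 4 of 12 DN3 markers were higher and none lower. Of 7 genes linked to PLZF 3 were higher and 2 lower, and of 13 relatives 1 was higher and 2 lower. Over 12 alternatives to the fit of all 6 libraries, Irf4 lost its call in 8 (adjusted p up to 0.18 in edgeR), Fasl and Slamf1 in 7 each, Il2ra in 6, Cd69 in 5, Egr1 in 3 and Nkg7 in 1. Cd163l1, a scavenger receptor gene chosen after its values were seen, followed the pattern of Etv5, at 1499 and 1551 CPM in GFPhi replicates 1 and 2 and 130.9 CPM in replicate 3, against 149.5 to 315.5 CPM in GFPlo libraries.

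**Figure D5:**
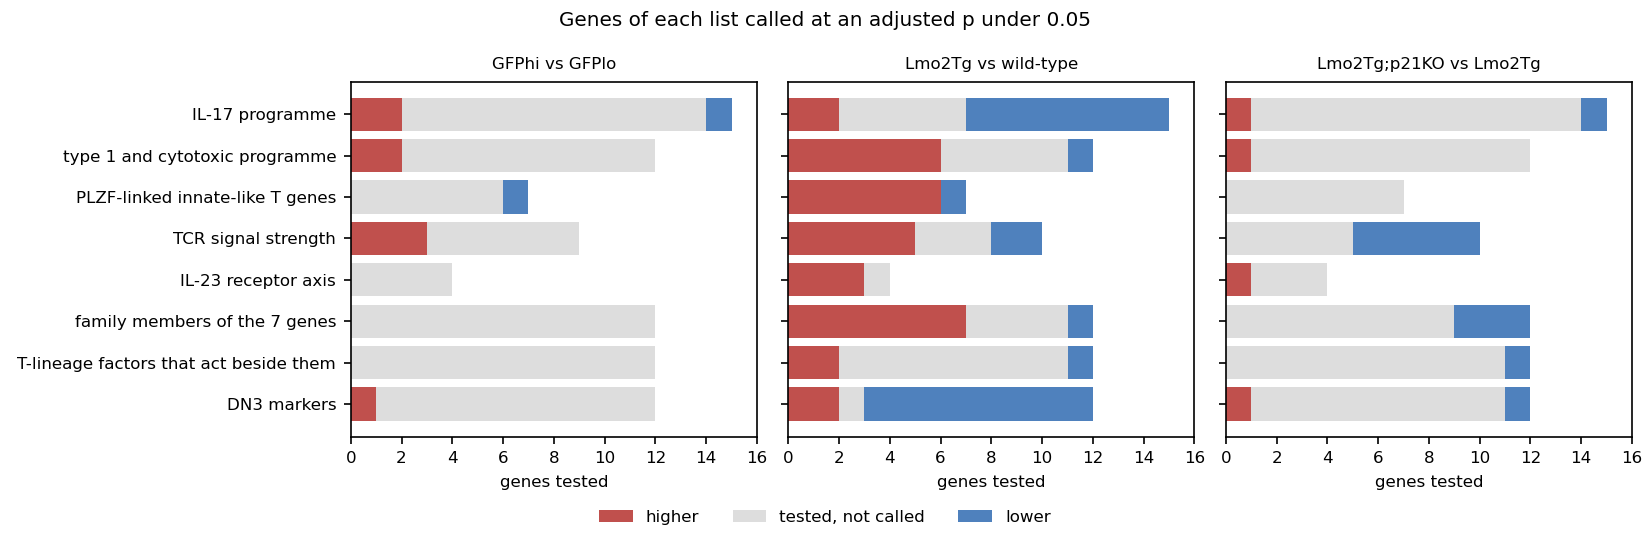
Number of genes of each list tested and called higher or lower at an adjusted p under 0.05 in 3 comparisons. The interleukin-17 programme had 8 genes lower and 2 higher in Lmo2Tg against wild-type, the type 1 and cytotoxic list 6 higher and 1 lower, and the TCR signal list 5 lower in Lmo2Tg;p21KO against Lmo2Tg.

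Markers of other cells that express these regulators were read beside them. Shares of all genes called were 19.7% higher and 16.9% lower in Lmo2Tg against wild-type and 5.37% and 9.49% in the GFP table. In Lmo2Tg against wild-type, 1 of 6 tested myeloid and dendritic markers, Lyz2, fell with Maf, from 15.8 to 5.96 CPM, and 2 rose. In Lmo2Tg;p21KO libraries Lyz2 stood at 13.0 and 17.9 CPM, on either side of its range of 14.6 to 16.6 CPM in wild-type, while Maf was at 0.999 and 1.63 CPM. The 9 markers of this list summed to between 15.9 and 34.2 CPM over the genotype libraries. Of 3 NK and innate lymphoid markers tested, Cd7 and Tyrobp were called higher in Lmo2Tg, from 1.12 to 10.1 and from 0.970 to 4.09 CPM. Zbtb16 was called higher there too, a call lost in 9 of 15 alternatives. In Lmo2Tg;p21KO against p21KO, where 16.3% of all genes were called higher, Cd7 and Tyrobp were again higher. Tyrobp lost that call in 5 of 16 alternatives, and Zbtb16 was not called (adjusted p = 0.33 in edgeR). The NK receptor gene Ncr1 was at 0 in both Lmo2Tg libraries, as was Klra8, and Gata3, which T cells also express, made up most of the list's sum of 111.9 and 112.8 CPM. The list of gamma-delta and innate-like T-cell markers summed to between 148.5 and 269.7 CPM over the genotype libraries, most of it Cd27. Of 3 genes tested 2, Cd27 and Cd44, were called higher in Lmo2Tg. Over 15 alternatives Cd27 lost this call in 5 and Cd44 in 2. No gene of a gamma or delta TCR chain was found by symbol in either table, so gamma-delta T cells were not measured directly. In the GFP table, some B-lineage markers were called higher, as was Maf. Of 7 tested, 4 were higher in GFPhi cells, and over 12 alternatives Cd79a lost this call in 5, Pax5 and Cd22 in 4 each and Ms4a1 in 2. Cd79b (log2 fold change 0.04) and Blnk (-0.26) were not called. The 8 of the list together summed to 29.0, 56.7 and 38.6 CPM in GFPhi against 24.6, 28.2 and 25.0 CPM in GFPlo libraries, with Cd79b the most abundant and Ms4a1 at 0 in GFPlo replicates 1 and 2. Without GFPhi replicate 3, 6 of 8 were higher, where 19.5% of all genes were. GFPhi replicate 2 had both the highest B-lineage sum and the 19 counts of Zbtb16. Epcam, the 1 thymic epithelial marker tested, which thymocytes also express, was lower with Maf in Lmo2Tg (18.8 against 51.7 CPM) and higher with it in GFPhi cells (57.6 against 19.2 CPM, a call lost in 5 of 12 alternatives). The other 4 markers of that list, Krt5, Krt8, Foxn1 and Psmb11, were too scarce to be tested and stood at no more than 0.191 CPM in any library, with Krt8 at 0.0740 and 0.137 CPM in Lmo2Tg against 0 to 0.0613 CPM in wild-type. The part of other cells in these results was not tested.

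Over the 9 genotype libraries, the genes whose log2 CPM was most like that of Sox13 among 9599 compared were Tctn1 (Pearson's r = 0.991), Cldn2 (0.989) and Sept8 (0.985). For Sox4 they were Rgs18 (0.981), Spag1 (0.980) and Paqr8 (0.976), for Etv5 Rapgef5 (0.982), Fam185a (0.976) and Myo10 (0.975), and for Maf Ybx2 (0.994), Nfkb2 (0.979) and Slc27a2 (0.976). Zbtb16 was most like Zdhhc21 (0.952), Gxylt1 (0.950) and Rad54l2 (0.950). In the 6 GFP libraries 2 of these 15 likenesses were above 0.7, Nfkb2 with Maf (0.961) and Paqr8 with Sox4 (0.806), whereas Ybx2 (-0.833) and Slc27a2 (-0.986) ran against Maf. Between the regulators themselves, Sox13 and Sox4 gave 0.872, Etv5 and Maf 0.932, and Sox4 and Maf -0.927 over the genotype libraries. Over the GFP libraries the same pairs gave -0.269, -0.081 and 0.851. These values are a description, since the points share libraries and genotype groups.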

How the data were processed

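Total DN3 cells of 4 genotypes and GFPhi and GFPlo DN3 cells were profiled by poly-A RNA-seq. The authors deposited raw read counts per protein-coding gene in 2 tables. The submitters' processing notes name STAR 2.4.2a, featureCounts, limma and mm10. Of 16 samples in the labels, 6 GFP and 9 genotype libraries were used. The 2 columns taken as Lmo2Tg, called replicates a and b, have names that also occur as descriptions of GFPlo samples and were assigned by the table they stand in, and 1 column of per-sample values that matched no sample was not used. Genes were kept with edgeR's filterByExpr (minimum count 10, minimum total 15), normalized by TMM within each table and tested with edgeR 4.0.16 (quasi-likelihood) in R 4.3.3. P-values were Benjamini-Hochberg adjusted over all genes tested, and genes under 0.05 were called. The tables were normalized separately, so no test crosses them. Total counts were 13864936 to 16837667 and 26861394 to 31106213, and 3 counts correspond to 0.176 to 0.222 and 0.0966 to 0.112 CPM. Intervals (95%) come from the fit, and floors cover counting error only. The code was tested on simulated data. Gene positions used GENCODE, with 98.6% of genes matched. The members and the lists were chosen with earlier results of these data known. From each list, up to 4 called genes per comparison with at least 1 CPM and the largest absolute log2 fold change were named, and for each member with at least 1 CPM the 3 genes (at least 5 CPM) most correlated with it over the genotype libraries. Alternatives were RLE scaling, DESeq2 1.42.0, limma-voom (limma 3.58.1), no filter on low counts, a fold above 2 with an adjusted p under 0.01, each library left out, a replicate block and fits of only the 2 groups compared. Some results of the lists are not reported here.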

Additional observations from a re-analysis of the deposited data

Results flagged for a closer look

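For 8 named genes the term for a different effect of p21 loss in mice with and without the Lmo2 transgene was called, by the interaction in edgeR's quasi-likelihood fit, where 1.38% of all genes were called. None of the 6 regulators tested was among them. Over 14 alternatives Serpinb1a and Stat4 lost the call in 11 each, Lyz2 in 10, Cdkn1a in 9, Maff in 8, Id2 in 7, and Mafk and Nr4a1 in 5 each. For Cdkn1a the interaction was -1.56 on the log2 scale (adjusted p = 0.032), with a log2 fold change of -1.36 in p21KO against wild-type and -2.92 in Lmo2Tg;p21KO against Lmo2Tg. In the TCR signal list, Nr4a1 had -4.23 (adjusted p = 0.018), from 0.61 without and -3.63 with the transgene, and Id2 had -2.30 (adjusted p = 0.030), from 0.35 and -1.95. The small MAF genes Maff and Mafk had -4.38 (adjusted p = 0.033) and -1.08 (adjusted p = 0.016). Serpinb1a of the interleukin-17 list had 0.85 (adjusted p = 0.048), Stat4 of the type 1 list 0.71 (adjusted p = 0.049) and the myeloid marker Lyz2 1.16 (adjusted p = 0.038). Without wild-type replicate 1, wild-type replicate 3 or Lmo2Tg;p21KO replicate 1, 0 of all genes were called for this term, against 163 with all 9 libraries.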

How the results depend on the processing

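Sox13 and Maf kept their calls under every alternative run in both comparisons of mice with and without the transgene. Over these alternatives the log2 fold change in Lmo2Tg against wild-type ranged from 0.96 to 1.26 for Sox13 and from -2.54 to -1.21 for Maf. Called genes in Lmo2Tg against wild-type (4329) fell to 1153, and called regulators from 5 to 2, when a fold above 2 and an adjusted p under 0.01 were required, and in Lmo2Tg;p21KO against p21KO (3639) to 983, and from 4 to 2. The same rule gave 97 in Lmo2Tg;p21KO against Lmo2Tg (822), 0 for the interaction (163), and 261 in GFPhi against GFPlo (1721), with 0 regulators in place of 1. DESeq2 gave 20 genes in p21KO against wild-type (13), 457 for the interaction and 2912 in GFPhi against GFPlo. No filter on low counts gave 21 in p21KO against wild-type and 520 for the interaction. Fitting only the 2 groups gave 404 in Lmo2Tg;p21KO against Lmo2Tg. With each library left out, called genes ranged from 2815 to 4248 in Lmo2Tg against wild-type (regulators 2 to 5), 8 to 18 in p21KO against wild-type, 60 to 1128 in Lmo2Tg;p21KO against Lmo2Tg, 1914 to 4251 in Lmo2Tg;p21KO against p21KO (regulators 3 to 5), 0 to 449 for the interaction and 273 to 4848 in GFPhi against GFPlo (regulators 0 to 3). The lowest came without Lmo2Tg replicate a, Lmo2Tg;p21KO replicate 1 (in both comparisons of that group), and GFPlo replicate 2, the interaction had 0 without wild-type replicate 1, wild-type replicate 3 or Lmo2Tg;p21KO replicate 1, and 4848 came without GFPhi replicate 3. The cause was not tested.

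Log2 fold changes that turned sign in some fit were not called in that fit. With each library left out, in p21KO against wild-type those of Maf ranged from -0.173 (without p21KO replicate 2; -0.119 and -0.033 without wild-type replicates 1 and 3) to 0.183, of Sox13 from -0.231 (without p21KO replicate 2) to 0.315 and of Lmo2 from -0.568 to 0.226 (without wild-type replicate 1). Lmo2 gave 0.039 with limma-voom, and Maf -0.016 with a replicate block in a fit of only the 2 groups. In Lmo2Tg;p21KO against Lmo2Tg, Maf ranged from -1.214 to 0.108 and Lmo2 from -0.067 (both turned without Lmo2Tg replicate a) to 1.217 (called higher without Lmo2Tg replicate b, adjusted p = 0.0088 in edgeR), Etv5 from -0.061 (without Lmo2Tg replicate b; -0.024 without Lmo2Tg;p21KO replicate 2) to 0.135, and, turned without Lmo2Tg;p21KO replicate 2, Zbtb16 from -0.442 to 0.455 and Tbx21 from -0.005 to 0.473. For the interaction, Tbx21 ranged from -0.56 to 0.08 (without wild-type replicate 1), Etv5 from -0.239 to 0.023 (without p21KO replicate 2) and Maf from -1.22 to 0.106 (without Lmo2Tg replicate a). In GFPhi against GFPlo, Sox13 ranged from -0.205 to 0.025 (without GFPlo replicate 1).

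No label or method says that a replicate number marks a cohort, and the deviations of same-numbered libraries gave correlations of 0.07, -0.079 and 0.099 in the GFP table, -0.237 and 0.303 for p21KO and wild-type, and 0.052 and 0.052 for Lmo2Tg;p21KO and p21KO, so the pairing is not known. A replicate block gave 496 called genes in GFPhi against GFPlo, with Maf still called (log2 fold change 2.064, adjusted p = 0.04 in edgeR) and Irf4, Fasl, Slamf1 and Il2ra no longer called (adjusted p = 0.12, 0.092, 0.089 and 0.05). No paired analysis was possible because the Lmo2Tg columns carry no usable replicate numbers, for the comparisons with Lmo2Tg. Depth limits Il23r, Zbtb16 and Tbx21, with at most 3, 31 and 25 counts in a library.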
